A study of Homo sapiens with 12 samples.

Results

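The genes described here encode the RNA polymerase II (Pol II) initiation machinery. They are the protein-coding genes of the deposited count table whose GENCODE symbol is exactly POLR2 followed by 1 letter from A to M, MED or TAF followed by digits only, or any symbol that starts with GTF2. The rule uses names and no measured value, and it found 73 genes among the 28747 gene identifiers of the table. They are 13 POLR2 genes, 18 TFII genes, 14 TAF genes and 28 Mediator subunits. Of these, 64 passed the filter on low counts in each comparison. The libraries came from DU145, a human prostate cancer cell line. The cells carried a stable lentiviral short hairpin RNA, either a control (shCtrl) or the knockdown hairpin labelled shSigma. Each kind of cell was grown attached to plastic (adherent) or as tumor spheres, the floating serum-free culture that selects for stem-like cells, and each of the 4 groups has 3 libraries. The comparisons ask how the knockdown changed the machinery in bulk cells and in spheres, whether these changes differed, and how the cultures differed within each hairpin. Both cell populations had been transduced and selected, so no group is untreated, and the labels do not give the sequence of the knockdown hairpin.

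Pol II makes all messenger RNA and starts at a promoter with the help of general factors. TFIID, which holds the TATA-binding protein TBP and the TAF proteins, binds the promoter, TFIIA and TFIIB steady it, TFIIF brings the polymerase, and TFIIE and TFIIH open the DNA. Mediator is a large bridge between factors bound at enhancers and Pol II, with a head and middle that touch the polymerase, a tail that receives activators, and a detachable kinase module that restrains it. Proliferating cancer cells depend on all of these complexes.

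Libraries held 16472722 to 26957777 counts. The luminal keratin genes KRT8 and KRT18 were expressed in all 12 libraries. EPCAM, an epithelial surface marker, was lower with the shSigma hairpin in adherent cells (264, 228 and 213 CPM against 30.8, 29.7 and 32.4, -2.99 ± 0.11, adjusted p = 3.48e-06) and in spheres (578, 663 and 599 against 60.7, 61.4 and 63.6, -3.31 ± 0.064, adjusted p = 1.02e-11). VIM, the mesenchymal filament vimentin, was higher in both (0.26 ± 0.073, adjusted p = 0.0207 for adherent cells and 2.18 ± 0.077, adjusted p = 9.14e-10 in spheres). The part of this shift in the results below was not tested. Fold changes are given as log2 ± SE with the adjusted p of the edgeR quasi-likelihood test, and levels as CPM (counts scaled to library size). The libraries differed in how their genes deviated from the group mean with the GC content of the transcript, most in adherent cells. Over 11744 genes this correlation was -0.745, -0.0404 and 0.788 in adherent shCtrl 1 to 3, 0.581, 0.727 and -0.743 in adherent shSigma 1 to 3, and between -0.506 and 0.409 in the 6 sphere libraries. The fits were therefore repeated with the GC trend of each library removed, and without adherent shCtrl 1 and shSigma 3, the 2 with the strongest negative correlation. Removing the trend also removes any difference between groups that follows GC.

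Of the 73 genes, 9 could not be measured, and these include the largest subunit of Pol II. POLR2A, which carries the catalytic site and the C-terminal domain, had at most 1 count in any library, although no cell can live without it. MED22, TAF9, GTF2H4 and GTF2A1L were at 0 counts in all 12 libraries. MED18 reached 1 count, TAF15 reached 2, and GTF2H2 and GTF2H2C, which are near-identical copies of each other, reached 4 and 8. GTF2A1L encodes a TFIIA subunit known from the testis, but the other 8 belong to machinery that every cell uses. These values are therefore not read as levels. For most of the 9, many of the genes beside them were empty too. Among the 10 nearest protein-coding genes, the number with at most 3 counts in every library was 10 for GTF2H4, 9 for MED22, 7 for POLR2A, 7 for TAF15 and 7 for GTF2H2, while it was 4 for GTF2A1L and GTF2H2C, 3 for TAF9 and 2 for MED18. Around the 64 tested genes it ranged from 0 to 4, and 25.4% of all 19237 protein-coding genes of the table were at this floor. When the canonical transcripts of all 73 genes were aligned to the 261 alternate sequences of the human reference, 5 of the 9 unmeasured genes (GTF2H2, GTF2H2C, GTF2H4, TAF15 and TAF9) had a copy there over at least 90% of their length at 98% identity or more, and 0 of the 64 tested genes did. How reads with several alignments were treated is not given in the sources used here, and its part in these values was not tested.

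**Figure D1:**
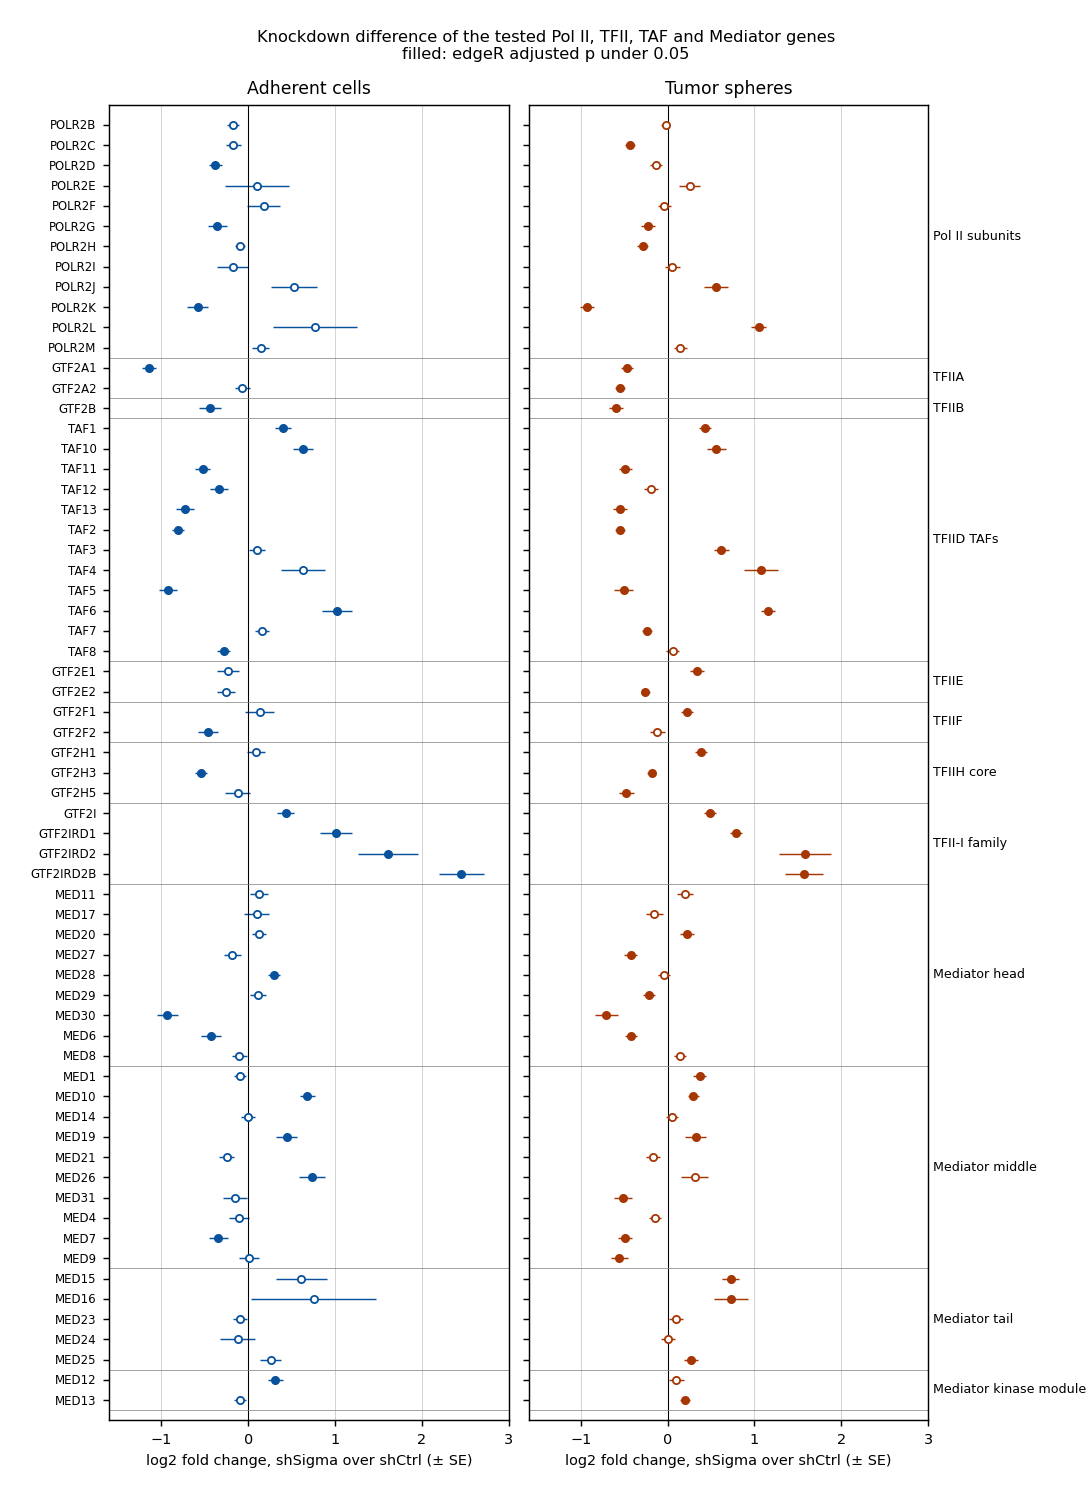
Knockdown log2 fold change (shSigma over shCtrl, ± SE) of the 64 tested genes, by complex, in adherent cells (left) and tumor spheres (right). Filled points passed an adjusted p of 0.05. The 4 TFII-I genes are on the right of 0 in both panels, while the Pol II, TAF and Mediator genes lie on both sides of 0. The filter fixed the direction of GTF2IRD2 in both panels and of GTF2IRD2B in the left one.

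With the shSigma hairpin single genes of the machinery were higher or lower, while the median of the set stayed close to that of all genes. In adherent cells 12 of the 64 genes were higher with the shSigma hairpin, where 22.3% of all 13764 genes tested were higher, and 16 were lower, where 27.7% of all genes were lower. Their median log2 fold change was -0.079, beside -0.014 for all genes tested. In tumor spheres 22 genes were higher, beside 30.2% of all 13774 genes tested, and 22 were lower, beside 30.9%. The median there was 0.027, beside 0.0015. In percent, 43.8 of the tested members were called in adherent cells and 68.8 in spheres. The median absolute log2 fold change was also close to that of all genes, at 0.29 beside 0.38 in adherent cells and 0.33 beside 0.34 in spheres. In adherent cells 5 genes passed an absolute log2 fold change of 1 (GTF2A1, lower, and TAF6, GTF2IRD1, GTF2IRD2 and GTF2IRD2B, higher), and in spheres 5 did (POLR2L, TAF4, TAF6, GTF2IRD2 and GTF2IRD2B, all higher). Over all genes 1889 of 13764 were called past 1 in adherent cells and 1806 of 13774 in spheres. The filter on low counts fixed the direction of GTF2IRD2 in both cultures and of GTF2IRD2B in adherent cells. The adherent count of lower genes depended on single libraries, with 10 without shCtrl 1 and 8 without shCtrl 2, shSigma 1 or shSigma 2. Over all genes the lower count, 3813 with every library, fell too. It was 3037 without shCtrl 1, 2581 without shCtrl 2, 2477 without shSigma 1 and 2597 without shSigma 2. GTF2B, GTF2F2, MED6, MED7, POLR2G and TAF12 were not called in any of these 4 fits.  In bulk RNA, fewer cells that use a gene and less RNA per cell cannot be told apart, and all values are relative to the other genes of a library.

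The fold changes of the 64 genes went with GC content. Their log2 fold change correlated with the GC of the transcript at r = 0.504 in adherent cells and 0.491 in spheres, where over all genes r was 0.162 and 0.069. These are descriptions across genes, which share libraries and are not replicates. With the GC trend removed, 18 genes were higher and 19 lower in adherent cells. Calls over all genes rose too, from 3073 higher and 3813 lower of 13764 to 4448 and 4397 of 13666. All 28 calls among the 64 genes were kept, and GTF2E2, GTF2H1, MED14, MED15, MED20, MED24, POLR2I, POLR2M and TAF7 were called as well. In spheres GTF2H3 and MED25 lost their call, and MED8 (0.16, adjusted p = 0.0479), MED11 (0.20, adjusted p = 0.0391) and POLR2M (0.23, adjusted p = 0.00716) gained one. Without adherent shCtrl 1 and shSigma 3, MED7 lost its adherent call, and GTF2E2, MED15, MED21, MED25, POLR2F, POLR2J and TAF7 gained one. Over all genes 3909 were then higher and 4149 lower.

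Of the 12 measured Pol II subunits, the enzyme's own parts, 3 were lower and 0 higher in adherent cells (edgeR, and 0 were higher at an unadjusted p of 0.05 or by DESeq2), and 2 were higher and 4 lower in spheres. POLR2K and POLR2L, small zinc-binding subunits that Pol II shares with the polymerases of ribosomal and transfer RNA, went opposite ways in spheres. POLR2K was at 102, 80.7 and 78.0 CPM in adherent shCtrl and 60.0, 56.2 and 66.3 CPM in adherent shSigma, a log2 fold change of -0.58 ± 0.12, adjusted p = 0.00538. In spheres it was at 107, 129 and 109 CPM with the control hairpin and 65.8, 54.4 and 61.2 CPM with the shSigma hairpin (-0.93 ± 0.085, adjusted p = 3.39e-06). The shSigma libraries were below all shCtrl libraries in both cultures.

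POLR2L was at 54.7, 47.2 and 52.8 CPM in sphere shCtrl and 121, 104 and 95.7 CPM in sphere shSigma, a log2 fold change of 1.05 ± 0.090, adjusted p = 2.50e-06. In adherent cells its values were 16.9, 24.0 and 43.0 CPM with the control hairpin and 54.5, 68.2 and 24.4 CPM with the shSigma hairpin. The spheres separated completely, while the adherent groups overlapped, with shCtrl 3 high and shSigma 3 low, and the adherent log2 fold change of 0.77 ± 0.49 did not pass (adjusted p = 0.239). The exons of POLR2L overlap those of CD151 on the other strand.

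POLR2D and POLR2G form the stalk that touches the emerging RNA. POLR2D was lower in adherent cells (-0.38 ± 0.071, adjusted p = 0.00353), and its value in spheres was -0.13 ± 0.064, adjusted p = 0.0876. POLR2G was lower in both cultures, at -0.35 ± 0.11, adjusted p = 0.0284 for adherent cells and -0.23 ± 0.076, adjusted p = 0.0215 in spheres. POLR2C, an assembly subunit, gave -0.17 ± 0.087, adjusted p = 0.138 in adherent cells and was lower in spheres (-0.43 ± 0.055, adjusted p = 3.04e-05), and POLR2H, another shared subunit, was lower in spheres (-0.29 ± 0.063, adjusted p = 0.00196) after -0.10 ± 0.058, adjusted p = 0.196 in adherent cells. POLR2J, the assembly partner of POLR2C, went the other way in spheres (0.55 ± 0.14, adjusted p = 0.00622), and its adherent value was 0.52 ± 0.27, adjusted p = 0.148. The second largest subunit, POLR2B, was among the steadiest genes, at 233, 223 and 209.5 CPM in adherent shCtrl, 202, 193 and 222 in adherent shSigma, 196, 202 and 193 in sphere shCtrl and 195, 187 and 200.5 in sphere shSigma. POLR2E, POLR2F, POLR2I and POLR2M passed the test in neither culture, although POLR2I (-0.41, adjusted p = 0.00222) and POLR2M (0.32, adjusted p = 0.000952) did in adherent cells with the GC trend removed. Their log2 fold changes lay between -0.18 and 0.18 in adherent cells and between -0.039 and 0.25 in spheres.

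**Figure D2:**
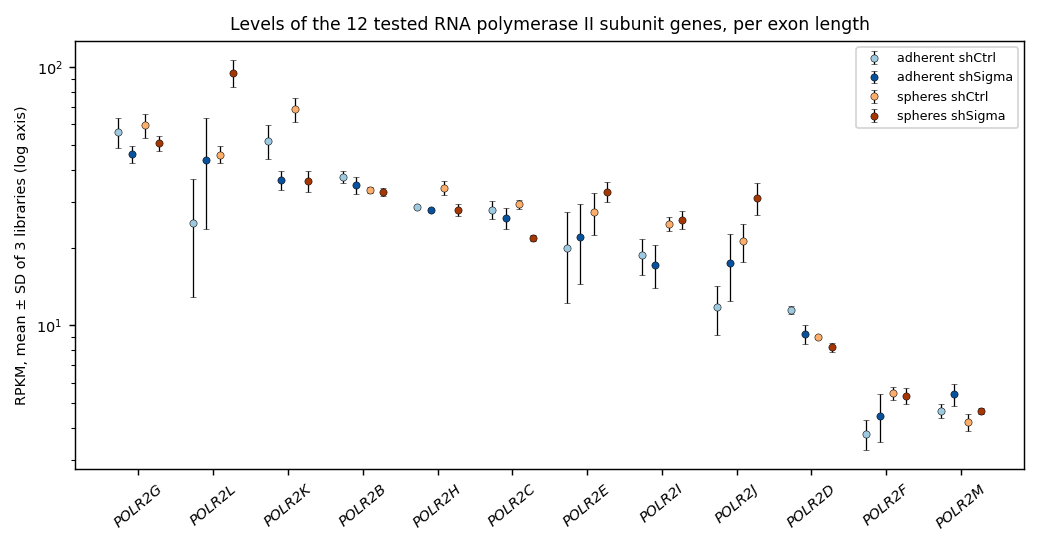
Level of the 12 measured POLR2 genes in reads per kilobase of exon, scaled to library size (RPKM). Points are the mean ± SD of 3 libraries in each of the 4 groups, on a log axis. POLR2G, POLR2K and POLR2L lead in 3 of the 4 groups, with POLR2L lower in adherent shCtrl, and POLR2F and POLR2M are lowest in all 4.

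Per exon length, transcripts of these genes did not stand at equal levels. In adherent shCtrl POLR2G was at 56.0 ± 7.20 RPKM (mean ± SD, n = 3) and POLR2K at 51.9 ± 7.71, which overlap within their spread, and POLR2B followed at 37.6 ± 1.97. POLR2H at 28.7 ± 0.12, POLR2C at 28.0 ± 2.27, POLR2L at 24.8 ± 11.996, POLR2E at 19.9 ± 7.64 and POLR2I at 18.7 ± 2.99 came next, and neighbours in this stretch were within their spread of one another. POLR2J at 11.7 ± 2.52 and POLR2D at 11.48 ± 0.40 were also alike, and POLR2M at 4.68 ± 0.28 and POLR2F at 3.81 ± 0.51 were lowest. In sphere shSigma the order had a new leader, with POLR2L at 94.8 ± 11.4 RPKM above POLR2G at 50.9 ± 3.40 and POLR2K at 36.2 ± 3.45. The exon length is the union of all annotated exons and understates the level of genes with long rare exons.

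TFIIA clamps TBP onto DNA and TFIIB sets the start site. GTF2A1, the large TFIIA subunit, had the lowest adherent log2 fold change of all 64 genes. It was at 158, 163 and 150.2 CPM in adherent shCtrl and 73.8, 67.6 and 82.2 CPM in adherent shSigma (-1.14 ± 0.077, adjusted p = 3.32e-05). In spheres it was at 94.9, 90.2 and 84.2 CPM and 61.8, 63.8 and 69.4 CPM (-0.47 ± 0.066, adjusted p = 7.65e-05). The hairpins were separated in both cultures, and the fall was smaller in spheres, where the control cells were already lower (difference 0.61 ± 0.11, adjusted p = 0.00108).

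GTF2A2, the small TFIIA subunit, had the larger fall in spheres. It was at 52.9, 49.5 and 53.0 CPM in adherent shCtrl and 54.0, 52.5 and 47.9 CPM in adherent shSigma (-0.069 ± 0.088, adjusted p = 0.543), where the groups overlapped, and at 77.0, 75.3 and 77.0 CPM in sphere shCtrl and 51.5, 51.1 and 54.7 CPM in sphere shSigma (-0.55 ± 0.058, adjusted p = 7.48e-06), where they did not. The difference between cultures was -0.53 ± 0.092, adjusted p = 0.000709. Control cells raised GTF2A2 in spheres and lowered GTF2A1. The subunits GTF2A1 and GTF2A2, which act as 1 complex, stood at 157 ± 6.32 and 51.8 ± 2.01 CPM in adherent shCtrl. In sphere shCtrl they stood at 89.8 ± 5.39 and 76.4 ± 0.96 CPM (mean ± SD, n = 3). CPM does not allow for the length of a gene. Per exon length they were at 23.0 ± 0.93 and 16.2 ± 0.63 RPKM in adherent shCtrl. In sphere shCtrl the order turned, with 13.2 ± 0.79 and 23.9 ± 0.30 RPKM. GTF2B, the only TFIIB gene, was at 30.9, 27.2 and 24.9 CPM in adherent shCtrl and 19.2, 19.9 and 25.1 CPM in adherent shSigma (-0.44 ± 0.13, adjusted p = 0.0229), with shSigma 3 inside the control range. In spheres it was at 43.3, 44.9 and 48.6 CPM and 32.97, 27.4 and 30.6 CPM (-0.59 ± 0.082, adjusted p = 6.61e-05).

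**Figure D3:**
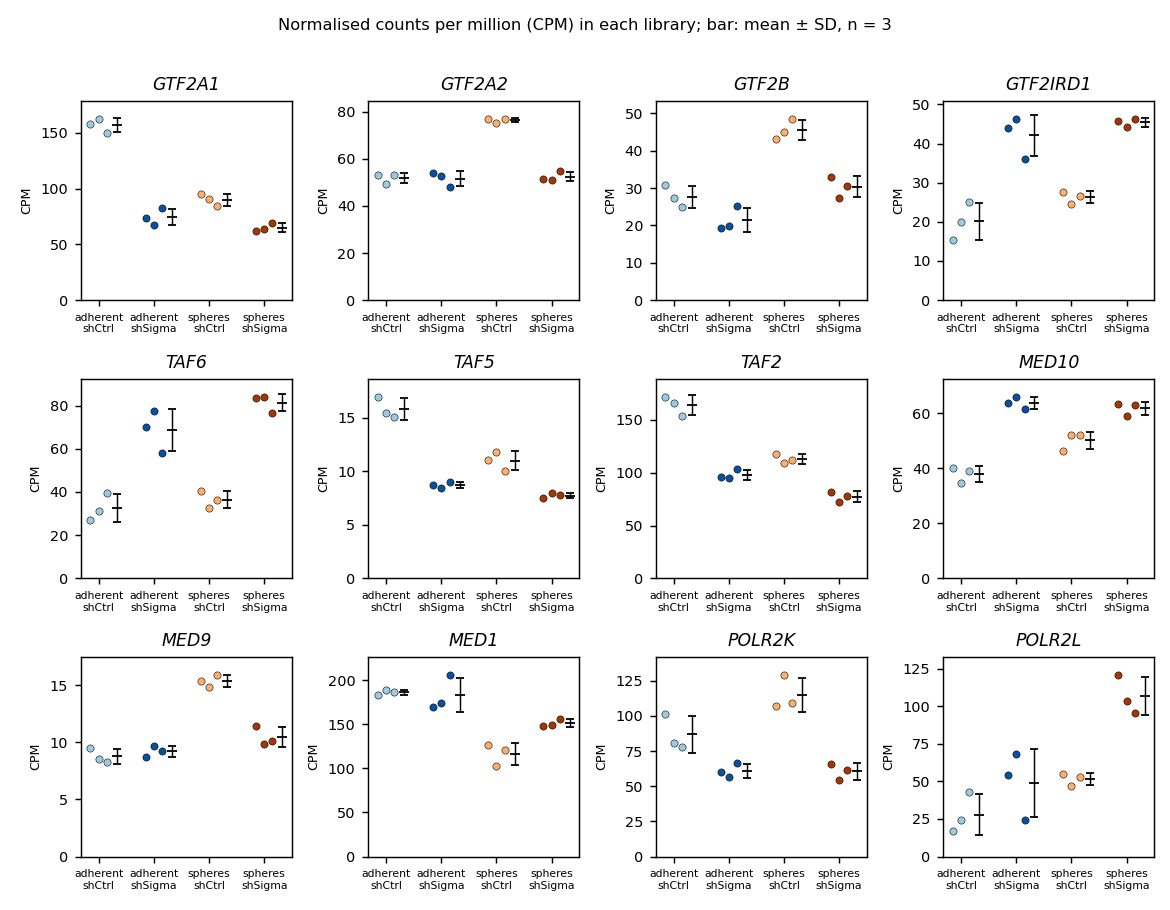
CPM of 12 genes in each of the 12 libraries (points, replicates 1 to 3 from left to right), with the group mean ± SD beside them (n = 3). GTF2A1, TAF2 and TAF5 fall and TAF6 and MED10 rise with the shSigma hairpin in both cultures, while GTF2A2 and MED9 fall and MED1 rises in spheres alone by the test of each culture.

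The promoters of 4 genes that passed in the knockdown or the interaction are shown because the general factors are themselves made from Pol II promoters. Each line gives the 100 bases that end just before the start site nearest the annotated 5′ end, read 5′ to 3′ on the strand of the gene, from RefSeq on GRCh38.p14. All 4 genes lie on the minus strand, at chr14:81221391-81221490 (GTF2A1), chr15:59657516-59657615 (GTF2A2), chr7:100119859-100119958 (TAF6) and chr5:6378548-6378647 (MED10). Capitals mark matches on either strand to the TATA box (TATAAA), the CCAAT box (CCAAT), the GC box (GGGCGG) and the motif of ETS factors (CCGGAAG).
GTF2A1: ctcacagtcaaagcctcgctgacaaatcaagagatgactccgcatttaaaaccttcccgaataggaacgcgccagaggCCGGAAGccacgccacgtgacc
GTF2A2: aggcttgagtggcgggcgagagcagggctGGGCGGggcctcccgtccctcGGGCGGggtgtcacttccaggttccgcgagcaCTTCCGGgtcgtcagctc
TAF6: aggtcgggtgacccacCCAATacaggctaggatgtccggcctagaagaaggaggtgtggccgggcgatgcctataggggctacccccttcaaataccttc
MED10: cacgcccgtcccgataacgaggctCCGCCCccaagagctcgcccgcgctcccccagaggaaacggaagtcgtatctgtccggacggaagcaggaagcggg
No TATA box stands in these 4 stretches. GTF2A1 holds 1 ETS motif, GTF2A2 holds 2 GC boxes and 1 ETS motif, TAF6 holds 1 CCAAT box, and MED10 holds 1 GC box. Over windows of 250 bases before to 50 after the start, 54 of the 73 genes had a promoter in the table. Of these 54, 22 held the ETS motif (40.7%, beside 12.9% of 21613 promoters of protein-coding genes), 32 the GC box (59.3% beside 56.8%), 13 the CCAAT box (24.1% beside 34.9%) and 4 the TATA box (7.41% beside 9.45%). A match to these letters is not evidence that a factor was bound.

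The TAF genes of TFIID went both ways. Of 12 measured TFIID TAF genes, 3 were higher and 6 lower in adherent cells, and 5 were higher and 5 lower in spheres. TAF6, a histone-fold subunit of the core, was higher, at 26.8, 31.2 and 39.6 CPM in adherent shCtrl and 70.3, 77.7 and 58.3 CPM in adherent shSigma (1.02 ± 0.17, adjusted p = 0.00274). In spheres it was at 40.4, 32.7 and 36.2 CPM and 83.3, 84.0 and 76.7 CPM (1.16 ± 0.082, adjusted p = 2.60e-07). No shSigma library overlapped the controls. The exons of TAF6 overlap those of AP4M1 and CNPY4 on the other strand.

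TAF2 and TAF5 were lower. TAF2, which contacts the initiator element at the start site, was at 172, 166 and 154 CPM in adherent shCtrl and 95.6, 94.9 and 103 CPM in adherent shSigma (-0.81 ± 0.072, adjusted p = 0.000108), and at 118, 109 and 112 CPM against 82.1, 72.2 and 77.7 CPM in spheres (-0.55 ± 0.061, adjusted p = 1.14e-05). TAF5, the scaffold of the core, was at 16.9, 15.4 and 15.1 CPM against 8.71, 8.399 and 8.97 CPM in adherent cells (-0.93 ± 0.10, adjusted p = 0.000292) and at 11.1, 11.8 and 10.03 CPM against 7.51, 7.95 and 7.73 CPM in spheres (-0.51 ± 0.11, adjusted p = 0.00143). The groups were separated for both genes in both cultures. TAF11 and TAF13, a histone-fold pair that touches TBP, were lower together, TAF11 at -0.52 in adherent cells and -0.49 in spheres (adjusted p = 0.00174 and 0.000115) and TAF13 at -0.73 and -0.55 (adjusted p = 0.000983 and 0.000113).

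Other TAF genes were higher. TAF1, the largest subunit, rose in both cultures (0.40 ± 0.093, adjusted p = 0.00885 for adherent cells and 0.43 ± 0.067, adjusted p = 0.000164 in spheres), and so did TAF10, which TFIID shares with the SAGA coactivator (0.63 ± 0.12, adjusted p = 0.00337 and 0.56 ± 0.11, adjusted p = 0.000931). TAF4, a core scaffold, was at low levels. It was at 1.38, 1.65 and 2.801 CPM in adherent shCtrl against 3.047, 3.02 and 3.33 CPM in adherent shSigma, where it did not pass (0.63 ± 0.25, adjusted p = 0.074), and at 2.23, 1.38 and 1.97 CPM against 4.23, 3.92 and 3.60 CPM in spheres (1.07 ± 0.19, adjusted p = 0.000437). TAF3, which reads trimethylated histone H3, was higher in spheres (0.62 ± 0.086, adjusted p = 7.17e-05) and gave 0.10 ± 0.091, adjusted p = 0.402 in adherent cells. TAF7, a regulator of TAF1, was lower in spheres (-0.24 ± 0.055, adjusted p = 0.00306) and gave 0.16 ± 0.080, adjusted p = 0.131 in adherent cells, where it passed with the GC trend removed (0.29, adjusted p = 0.000168). TAF8 and TAF12 were lower in adherent cells, at -0.28 (adjusted p = 0.0124) and -0.34 (adjusted p = 0.0318). Both of these calls were lost with DESeq2 and without adherent shCtrl 2, shSigma 1 or shSigma 2.

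The late-acting factors TFIIE, TFIIF and TFIIH moved by small amounts, and none of their 7 measured genes passed an absolute log2 fold change of 1. GTF2H3, a TFIIH core subunit of DNA repair and initiation, was at 173, 175 and 164 CPM in adherent shCtrl and 121, 114 and 132 CPM in adherent shSigma (-0.55 ± 0.067, adjusted p = 0.000453), and at 103, 109.7 and 109 CPM against 98.7, 90.02 and 95.04 CPM in spheres (-0.19 ± 0.056, adjusted p = 0.0123). The fall in spheres was not called with the GC trend removed (-0.12, adjusted p = 0.0648). GTF2H1, the TFIIH subunit that binds TFIIE, was higher in spheres (0.39 ± 0.071, adjusted p = 0.000527) and gave 0.093 ± 0.11, adjusted p = 0.496 in adherent cells, where it passed with the GC trend removed (0.24, adjusted p = 0.0086). GTF2H5, the smallest TFIIH subunit, was lower in spheres (-0.47 ± 0.089, adjusted p = 0.000646). The TFIIE pair parted in spheres, with GTF2E1 higher (0.34 ± 0.080, adjusted p = 0.00324) and GTF2E2 lower (-0.26 ± 0.056, adjusted p = 0.00193), after -0.24 ± 0.13, adjusted p = 0.158 and -0.25 ± 0.10, adjusted p = 0.0709 in adherent cells. With the GC trend removed GTF2E2 was lower there too (-0.17, adjusted p = 0.0385). Of the TFIIF pair, GTF2F2 was lower in adherent cells (-0.46 ± 0.12, adjusted p = 0.0146) and GTF2F1 higher in spheres (0.23 ± 0.066, adjusted p = 0.0111).

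In the TFII-I family GTF2I and GTF2IRD1 were higher in both cultures. Despite the shared name these proteins are DNA-binding regulators and not parts of the initiation complex. GTF2I, the founding member, was at 59.0, 55.4 and 56.5 CPM in adherent shCtrl and 73.1, 72.8 and 95.6 CPM in adherent shSigma (0.43 ± 0.099, adjusted p = 0.00856), and at 60.0, 52.6 and 57.6 CPM against 75.5, 81.0 and 83.3 CPM in spheres (0.49 ± 0.069, adjusted p = 7.23e-05). GTF2IRD1 was at 15.5, 19.9 and 25.1 CPM against 43.9, 46.3 and 36.1 CPM in adherent cells (1.01 ± 0.19, adjusted p = 0.00411) and at 27.6, 24.6 and 26.7 CPM against 45.7, 44.2 and 46.4 CPM in spheres (0.79 ± 0.072, adjusted p = 2.12e-06). The shSigma libraries were above the controls in every case.

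GTF2IRD2 and GTF2IRD2B were called higher in both cultures from few reads. GTF2IRD2B was at 0.50, 0.34 and 0.47 CPM in adherent shCtrl and 3.09, 2.10 and 2.41 CPM in adherent shSigma (2.46 ± 0.26, adjusted p = 0.000222), and at 0.94, 1.104 and 0.81 CPM against 2.37, 2.91 and 3.23 CPM in spheres (1.57 ± 0.22, adjusted p = 7.03e-05). GTF2IRD2 was at 0.35, 0.30 and 0.47 CPM against 1.095, 0.82 and 1.69 CPM in adherent cells (1.61 ± 0.34, adjusted p = 0.00597) and 0.53, 0.50 and 0.71 CPM against 1.66, 2.28 and 1.32 CPM in spheres (1.58 ± 0.30, adjusted p = 0.000686). The groups did not overlap. GTF2IRD2 had 9, 7 and 12 counts in adherent shCtrl and 9, 9 and 14 in sphere shCtrl, and GTF2IRD2B had 13, 8 and 12 in adherent shCtrl. At the minimum count of 10 they entered those tests through the shSigma libraries, so the direction was fixed by the filter and the fold change is a description. These 2 genes are near-identical copies, and GTF2I has copies beside them, so the split of reads among them is uncertain. All 4 genes of the family lie together on chromosome 7.

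Mediator subunits also went both ways. Of the 26 measured, 5 were higher and 3 lower in adherent cells (median log2 fold change 0.0018), and 8 were higher and 7 lower in spheres (0.074). In the head, which holds the polymerase, 1 of 9 genes was higher and 2 were lower in adherent cells, and 1 was higher and 4 lower in spheres. MED30 was at 29.9, 25.7 and 24.7 CPM in adherent shCtrl and 13.0, 15.8 and 15.3 CPM in adherent shSigma (-0.93 ± 0.12, adjusted p = 0.000625), and at 18.3, 21.3 and 16.2 CPM against 13.5, 10.8 and 9.85 CPM in spheres (-0.71 ± 0.13, adjusted p = 0.000696). MED6 was at 41.0, 36.9 and 33.5 CPM against 29.1, 25.8 and 31.8 CPM in adherent cells (-0.43 ± 0.11, adjusted p = 0.0149) and 33.9, 36.1 and 36.6 CPM against 27.8, 25.2 and 26.8 CPM in spheres (-0.42 ± 0.072, adjusted p = 0.000341). Both genes were lower without overlap.

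Other head subunits moved in 1 culture by its test. MED28 was higher in adherent cells (0.30 ± 0.068, adjusted p = 0.00791) and gave -0.045 ± 0.068, adjusted p = 0.586 in spheres. MED27 was lower in spheres (-0.43 ± 0.076, adjusted p = 0.000475) and so was MED29 (-0.21 ± 0.072, adjusted p = 0.0211), while MED20 was higher (0.23 ± 0.079, adjusted p = 0.0266). MED8, MED11 and MED17 passed in neither culture, and MED8 and MED11 did in spheres with the GC trend removed.

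In the middle module 3 of 10 genes were higher and 1 lower in adherent cells, and 3 were higher and 3 lower in spheres. MED10, a hinge subunit, was at 40.3, 34.8 and 39.1 CPM in adherent shCtrl and 63.7, 66.0 and 61.5 CPM in adherent shSigma (0.68 ± 0.089, adjusted p = 0.000586), and at 46.4, 52.0 and 52.0 CPM against 63.4, 59.0 and 62.9 CPM in spheres (0.30 ± 0.067, adjusted p = 0.00225). MED26, which recruits elongation factors, was at 3.46, 3.30 and 3.59 CPM against 6.71, 5.94 and 5.31 CPM in adherent cells (0.74 ± 0.15, adjusted p = 0.00487), and its sphere value was 0.31 ± 0.16, adjusted p = 0.101. Their adherent groups were separate. MED7, a core of the middle, was lower in both cultures (-0.34 ± 0.11, adjusted p = 0.0295 for adherent cells and -0.50 ± 0.079, adjusted p = 0.000207 in spheres), although its adherent call was lost without adherent shCtrl 1 and shSigma 3, and MED19 was higher in both (0.44 ± 0.12, adjusted p = 0.0204 and 0.32 ± 0.13, adjusted p = 0.0446). The sphere groups of MED19 overlapped. Its sphere call was lost with DESeq2 and with any sphere library left out except shCtrl 2. The adherent call of MED19 was lost without shCtrl 2, shCtrl 3 or shSigma 3.

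MED1 and MED9 differed between hairpins in spheres. MED1, the contact of nuclear receptors, was at 127, 103 and 121 CPM in sphere shCtrl and 149, 149 and 156 CPM in sphere shSigma (0.37 ± 0.074, adjusted p = 0.0011), and at 184, 189 and 186 CPM against 169.8, 175 and 206 CPM in adherent cells (-0.089 ± 0.069, adjusted p = 0.32). MED9 was at 15.4, 14.8 and 15.9 CPM against 11.4, 9.80 and 10.1 CPM in spheres (-0.56 ± 0.097, adjusted p = 0.000392) and at 9.49, 8.50 and 8.28 CPM against 8.71, 9.68 and 9.21 CPM in adherent cells (0.007 ± 0.12, adjusted p = 0.966). The sphere groups were separate and the adherent groups overlapped. MED31, a small conserved subunit, was lower in spheres (-0.51 ± 0.10, adjusted p = 0.00114).

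In the tail, which receives activators, 0 of 5 genes passed in adherent cells (edgeR, 0 at an unadjusted p of 0.05 and 1 by DESeq2) and 3 were higher in spheres. MED15, a target of lipid and stress regulators, was at 105, 77.3 and 92.5 CPM in sphere shCtrl and 156, 155 and 146 CPM in sphere shSigma (0.73 ± 0.097, adjusted p = 0.00013). In adherent cells it was at 46.9, 64.5 and 90.9 CPM and 116, 126 and 77.4 CPM (0.61 ± 0.29, adjusted p = 0.132). MED16 was at 25.6, 13.9 and 22.6 CPM against 37.5, 35.7 and 29.99 CPM in spheres (0.73 ± 0.19, adjusted p = 0.00863) and at 3.61, 8.12 and 17.3 CPM against 19.7, 24.8 and 5.50 CPM in adherent cells (0.75 ± 0.72, adjusted p = 0.429). In the adherent groups both genes were lowest in shCtrl 1 and shSigma 3, the 2 libraries left out above, and their transcripts are rich in GC (61.0% and 65.1%). With the GC trend removed MED15 passed in adherent cells as well (0.38, adjusted p = 0.0013). MED25, a target of viral and stress activators, was higher in spheres (0.26 ± 0.080, adjusted p = 0.0129), but its sign turned with the GC trend removed (-0.083, adjusted p = 0.299).

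The kinase module has a CDK, a cyclin and the large subunits MED12 and MED13. MED12, which activates the kinase, was at 31.5, 37.8 and 38.8 CPM in adherent shCtrl and 47.2, 45.8 and 47.1 CPM in adherent shSigma (0.31 ± 0.089, adjusted p = 0.0208), and gave 0.10 ± 0.090, adjusted p = 0.345 in spheres. MED13, which ties the module to Mediator, was higher in spheres (0.20 ± 0.063, adjusted p = 0.0158) and gave -0.10 ± 0.067, adjusted p = 0.266 in adherent cells. The kinase genes are not members by name and are given with the partner lists.

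The adherent and sphere comparisons share no library, so their calls can be set side by side. Both set shSigma cells against shCtrl cells, and the labels name no separate transductions for the 2 cultures. A difference between these cells other than the knockdown could recur in both. Their agreement is therefore not independent evidence on the knockdown. Of the 64 genes, 9 were higher in both (GTF2I, GTF2IRD1, GTF2IRD2, GTF2IRD2B, TAF1, TAF6, TAF10, MED10 and MED19) and 12 lower in both (GTF2A1, GTF2B, GTF2H3, MED6, MED7, MED30, POLR2G, POLR2K, TAF2, TAF5, TAF11 and TAF13), and 0 were called in opposite directions. Over the 13391 genes tested in both cultures, 14.2% were higher in both, 17.7% lower in both, and 2.07% and 2.05% were called in opposite directions. The 9 and the 12 members are 14.1% and 18.8% of the 64. Of the 9, GTF2IRD2 in both cultures and GTF2IRD2B in adherent cells had their direction fixed by the filter. The sphere call of MED19 was lost with DESeq2. The sign was the same in 76.6% of members and 73.1% of all genes.

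**Figure D4:**
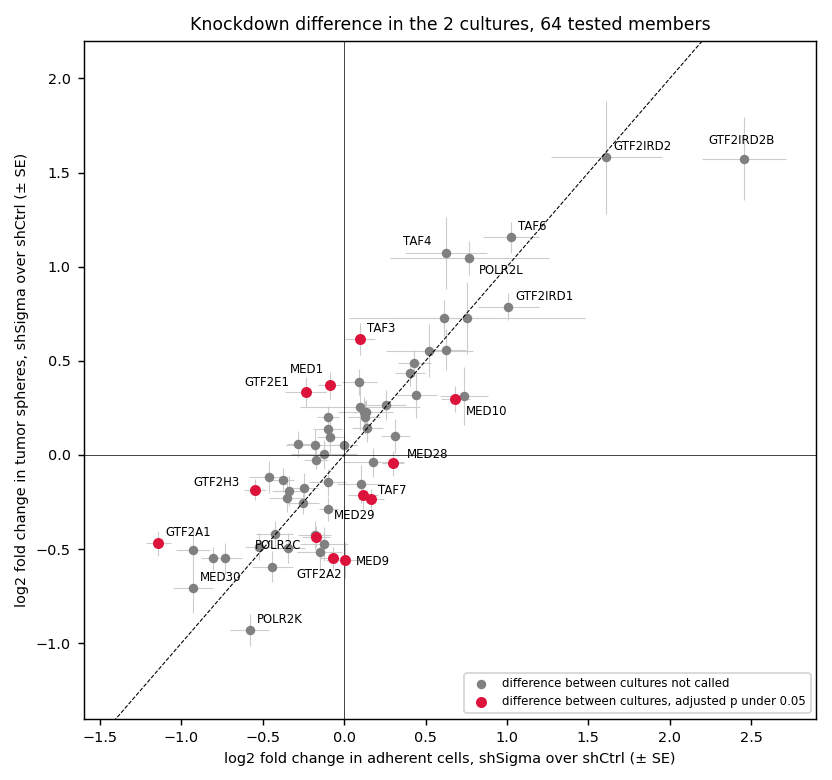
Knockdown log2 fold change in adherent cells (horizontal) and in tumor spheres (vertical) of the 64 tested genes, with SE. The dashed line marks equal values. Red points are the 12 genes whose difference between cultures passed an adjusted p of 0.05, 5 of them above the line and 7 below it.

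The test of the difference itself called 12 of 64 genes (18.8%), where it called 28.4% of all 14175 genes tested. GTF2A1, GTF2E1, GTF2H3, MED1 and TAF3 had higher fold changes in spheres than in adherent cells, and GTF2A2, MED9, MED10, MED28, MED29, POLR2C and TAF7 had lower ones. The calls of MED29 and POLR2C were lost with DESeq2 and in most fits with a library left out. The largest among the 12 were -0.62 ± 0.14 for MED9 (adjusted p = 0.00463) and 0.61 ± 0.11 for GTF2A1 (adjusted p = 0.00108). TAF7 was at 159.9, 145 and 139 CPM in adherent shCtrl and 164, 168 and 188 CPM in adherent shSigma, and at 184, 203 and 204 CPM against 173, 163 and 167 CPM in spheres (difference -0.46 ± 0.10, adjusted p = 0.00421). MED28 was at 82.1, 94.8 and 91.4 CPM against 115, 111 and 119 CPM in adherent cells and 94.7, 94.0 and 93.9 CPM against 84.5, 100.5 and 89.6 CPM in spheres (difference -0.40 ± 0.10, adjusted p = 0.0102). Every adherent shSigma library of TAF7 stood above the adherent controls and every sphere shSigma library below the sphere controls, and the sphere groups of MED28 overlapped. The count was 7 without adherent shSigma 1 or without sphere shSigma 3, and in both fits GTF2E1, GTF2H3, MED1, MED29 and POLR2C were not called. Over all genes the difference was called above 0 for 1807 and below 0 for 2217 genes. These counts were 1499 and 1735 without adherent shSigma 1, and 1524 and 1708 without sphere shSigma 3.

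The cultures also differed within each hairpin. In control cells 18 of the 64 genes were higher in spheres than in adherent cells, where 28.5% of all genes were higher, and 18 were lower, where 27.5% were lower. Without sphere shCtrl 2 the higher count in control cells was 11. The higher count over all genes was then 3409, against 4043 with every library. With the shSigma hairpin 5 were higher, beside 20.2% of all genes, and 13 were lower, beside 25.5%, and 9 were higher with the GC trend removed. With that trend removed 3697 of all genes were higher, against 2863. These comparisons use the same libraries as the ones above and are not further evidence on the hairpin. In control cells the lowest genes were GTF2A1 (-0.81 ± 0.079, adjusted p = 1.34e-06), MED1 (-0.67 ± 0.085, adjusted p = 1.56e-05) and GTF2H3 (-0.67 ± 0.066, adjusted p = 1.51e-06), and the highest called ones were GTF2IRD2B (1.0961 ± 0.29, adjusted p = 0.00605), POLR2J (0.85 ± 0.23, adjusted p = 0.00915) and MED9 (0.81 ± 0.099, adjusted p = 1.21e-05). MED16 (1.0984 ± 0.60, adjusted p = 0.149) and POLR2L (0.88 ± 0.40, adjusted p = 0.0846) had values as high but did not pass. GTF2B was higher in spheres with both hairpins, at 0.72 ± 0.11, adjusted p = 0.000113 in shCtrl and 0.50 ± 0.12, adjusted p = 0.00318 in shSigma. MED11 was too, at 0.48 ± 0.089, adjusted p = 0.00047 and 0.50 ± 0.089, adjusted p = 0.000549.

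Of the 12 TFIID TAF genes, 1 was higher and 6 lower in control spheres, and 3 were lower and 0 higher in shSigma spheres (edgeR, and 0 were higher at an unadjusted p of 0.05 or by DESeq2). TAF1 was lower in spheres with both hairpins (-0.42 ± 0.089, adjusted p = 0.0011 in shCtrl and -0.46 ± 0.088, adjusted p = 0.000892 in shSigma), and so was TAF2 (-0.54 ± 0.068, adjusted p = 1.60e-05 and -0.34 ± 0.069, adjusted p = 0.00131). Fold changes between cultures rose with GC content over all genes (r = 0.301 in shCtrl and 0.311 in shSigma over 14060 genes). In shCtrl the median was -0.160 in the lowest GC quartile and 0.536 in the highest. With this trend removed the log2 fold changes of TAF6 (0.16), GTF2F1 (0.11), POLR2H (0.25), POLR2I (0.40) and GTF2IRD1 (0.38) in control cells came out below 0, at -0.28, -0.21, -0.22, -0.052 and -0.012. Those of GTF2A1 (-0.61), MED1 (-0.52), GTF2H3 (-0.50), GTF2IRD2B (1.17), POLR2J (0.69) and MED9 (0.63) kept their sign and passed the test.

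Across the 4 groups the ratio of the highest to the lowest group mean had a median of 1.47 over the 64 genes and ran from 1.104 in MED4 to 6.495 in GTF2IRD2B. The 6 lowest ratios were those of MED4, POLR2B, MED23, MED24, POLR2H and TAF8, and 15 genes passed a ratio of 2. The 15 include GTF2IRD2, GTF2IRD2B and TAF4, which had few reads. These ratios were not computed over all genes, so the set is not ranked against them. MED4, a middle subunit, was at 47.1 ± 6.30 CPM in adherent shCtrl, 46.0 ± 3.98 in adherent shSigma, 48.6 ± 3.64 in sphere shCtrl and 43.99 ± 2.36 in sphere shSigma (mean ± SD, n = 3). Its groups overlapped in all 4 comparisons. MED23, a tail subunit, was called in none of the comparisons either, at 47.4 ± 1.52, 46.6 ± 4.601, 40.8 ± 4.94 and 43.7 ± 0.26 CPM in the same order.

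**Figure D5:**
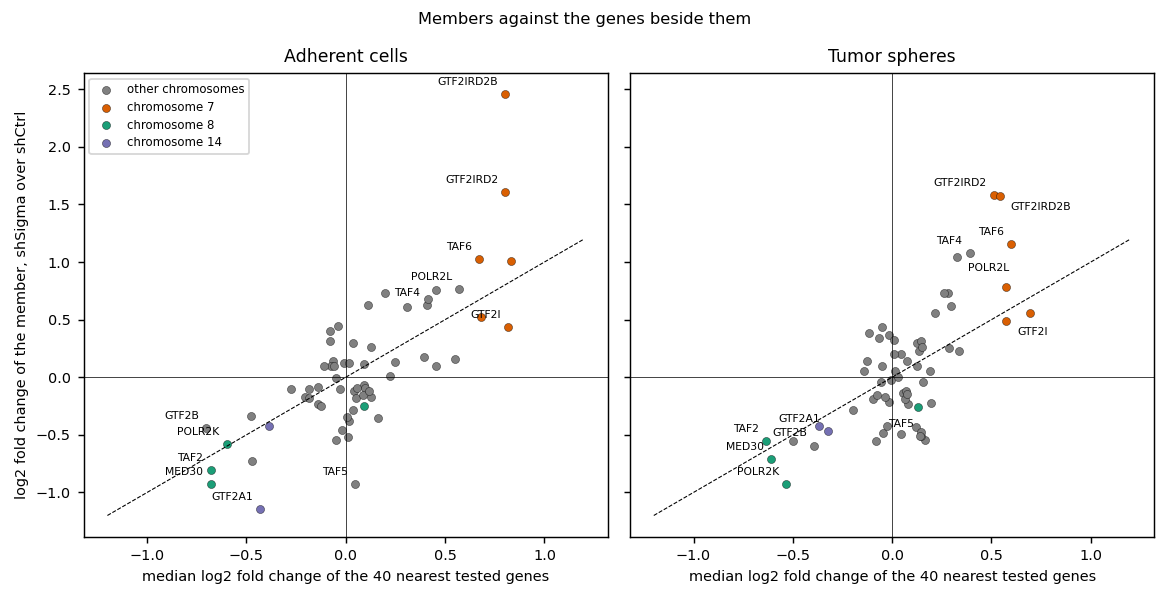
Knockdown log2 fold change of each of the 64 tested genes (vertical) against the median over its 40 closest tested genes on the chromosome (horizontal), for each culture. The dashed line marks equal values. Genes on chromosome 7 lie to the upper right, and TAF2, MED30 and POLR2K of chromosome 8 to the lower left.

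The position of a gene, which the rule did not use, went with its fold change. Across the 64 genes the knockdown log2 fold change correlated with that of the surroundings, taken as the median over 40 nearest tested genes, at r = 0.769 in adherent cells (Spearman's rho = 0.677) and r = 0.723 in spheres (rho = 0.604). Genes that lie close together share most of these neighbours, so the points are not independent. The same correlation over all genes was not computed. On chromosome 7, which holds the 4 TFII-I genes, TAF6 and POLR2J, 5 of 6 were higher in adherent cells and 6 of 6 in spheres. Among them GTF2IRD2 in both cultures and GTF2IRD2B in adherent cells had their direction fixed by the filter. On this chromosome 46.0% of all 666 tested genes were higher in adherent cells and 60.6% of 668 in spheres, and their median was 0.41 and 0.44. On chromosome 8, which holds TAF2, MED30, POLR2K and GTF2E2, 3 of 4 were lower in adherent cells and 4 of 4 in spheres, where 46.2% and 53.2% of all its tested genes were lower. On chromosome 14 GTF2A1 and MED6 were lower in both cultures, as were 52.2% and 60.1% of its tested genes.

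When the median of the neighbours was subtracted, 17 of the 28 adherent calls kept their direction and passed, and 30 of the 44 sphere calls did. In adherent cells 3 other members gained a call, and in spheres 4 did. Over all genes 2955 were then higher and 3348 lower in adherent cells, against 3073 and 3813. In spheres these counts were 3750 and 4010, against 4163 and 4251. The calls of TAF2, MED30 and MED6 were lost in both cultures, as were those of GTF2B and TAF13. GTF2I, higher by the test in adherent cells, stood below its neighbours there (-0.38 after subtraction, adjusted p = 0.0158), and in spheres its call was lost (-0.084, adjusted p = 0.318). GTF2IRD1 (0.18, adjusted p = 0.471) and GTF2IRD2 (0.81, adjusted p = 0.0921) lost the adherent call and kept the sphere call. The filter fixed the direction of GTF2IRD2 in both cultures, so its values are descriptions. POLR2K lost the adherent call and stayed below its neighbours in spheres (-0.40, adjusted p = 0.00215). GTF2A1 stayed below its neighbours in adherent cells (-0.71, adjusted p = 0.000282) and lost the sphere call (-0.14, adjusted p = 0.0826). TAF2 lay at -0.81 beside a neighbour median of -0.68 in adherent cells, and MED30 at -0.93 beside -0.68. Other genes stood clear of their surroundings. TAF5 was at -0.93 where its neighbours had a median of 0.05 (-0.97 after subtraction, adjusted p = 0.000266), and in spheres at -0.51 beside 0.15 (adjusted p = 0.000269). GTF2IRD2B exceeded its neighbours in spheres (1.03 after subtraction, adjusted p = 0.00197). Its adherent value after subtraction, 1.66, is a description, since the filter fixed its direction there. TAF1, TAF10 and TAF11 kept their calls in both cultures. Of the 12 interaction calls, 6 were lost after subtraction (GTF2H3, MED9, MED10, MED29, TAF3 and TAF7). TAF6 exceeded its neighbours in spheres (0.56, adjusted p = 0.000118) and not by the test in adherent cells (0.35, adjusted p = 0.138). The number of copies of these regions in the 2 cell populations was not measured here, and its part was not tested.

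The partners of the machinery outside the naming rule were taken as lists. Beside the counts of these and the further lists below, 22.3% of all genes were higher and 27.7% lower in adherent cells. In spheres the shares over all genes were 30.2% and 30.9%. TBP, the DNA-binding centre of TFIID, gave -0.13 ± 0.094, adjusted p = 0.273 for adherent cells and -0.17 ± 0.081, adjusted p = 0.0909 in spheres. Among the TFIIH helicases and kinase subunits, 3 of 4 measured genes were lower in adherent cells and 2 in spheres, and 0 were higher in either (edgeR, 0 at an unadjusted p of 0.05, and by DESeq2 1 in adherent cells and 0 in spheres). MNAT1, which assembles the TFIIH kinase, was at 70.9, 62.8 and 58.3 CPM against 39.996, 39.4 and 44.6 CPM in adherent cells (-0.70 ± 0.098, adjusted p = 0.000864) and 54.3, 64.7 and 58.0 CPM against 35.7, 33.4 and 34.4 CPM in spheres (-0.78 ± 0.075, adjusted p = 3.39e-06). The shSigma libraries were lower without overlap.

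CDK19, 1 of the alternative kinases of Mediator, was at 23.2, 24.8 and 23.0 CPM in adherent shCtrl and 40.9, 38.7 and 45.4 CPM in adherent shSigma (0.75 ± 0.081, adjusted p = 0.000245), and higher in spheres as well (0.79 ± 0.085, adjusted p = 8.76e-06). CDK8, the other, was lower in adherent cells (-0.38 ± 0.085, adjusted p = 0.00754) and gave -0.10 ± 0.074, adjusted p = 0.275 in spheres. Over the 5 kinase partners of Mediator, 2 were higher and 2 lower in adherent cells and 1 was higher and 2 lower in spheres. Of 10 TAF paralogs and TAF genes of other complexes, 2 were higher and 4 lower in adherent cells, and 5 were higher and 1 lower in spheres. TAF9B, the close relative of the unmeasured TAF9, was lower in adherent cells (-1.16 ± 0.13, adjusted p = 0.000289) and less so in spheres (-0.27 ± 0.098, adjusted p = 0.0295, difference 0.83 ± 0.16, adjusted p = 0.00135). TAF1L, a copy of TAF1 known from the testis, was at most 0.307 CPM in the shCtrl libraries and at least 0.917 CPM in the shSigma libraries of both cultures (2.68 ± 0.44, adjusted p = 0.0018 for adherent cells and 4.24 ± 0.50, adjusted p = 1.87e-05 in spheres). It shares sequence with TAF1, so its counts are uncertain. It entered the tests through the shSigma libraries alone, which fixed the direction.

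After initiation, 4 of 29 measured pausing and elongation genes were higher and 6 lower in adherent cells, and 9 were higher and 7 lower in spheres. ELL2, a subunit of the super elongation complex, turned with the culture. It was at 64.4, 65.4 and 62.3 CPM in adherent shCtrl against 83.3, 85.4 and 94.4 CPM in adherent shSigma (0.39 ± 0.065, adjusted p = 0.002), and at 68.5, 72.2 and 83.3 CPM against 37.0, 35.7 and 35.5 CPM in spheres (-1.06 ± 0.079, adjusted p = 4.26e-07, difference -1.5049 ± 0.11, adjusted p = 4.27e-07). AFF1, the scaffold of the same complex, was higher in both cultures (1.2001 ± 0.068, adjusted p = 1.68e-05 for adherent cells and 0.44 ± 0.068, adjusted p = 0.000151 in spheres). Of 14 Integrator genes, 2 were higher and 5 lower in adherent cells and 5 were higher and 5 lower in spheres. INTS10 was lower in both cultures (-0.69 ± 0.091, adjusted p = 0.000631 for adherent cells and -0.45 ± 0.054, adjusted p = 1.85e-05 in spheres), and so was INTS8 (-0.50 ± 0.088, adjusted p = 0.00245 and -0.62 ± 0.051, adjusted p = 8.20e-07). Of 16 SAGA genes, 2 were higher and 6 lower in adherent cells and 3 were higher and 4 lower in spheres. TADA3, an adaptor of its acetyltransferase, was lower in both cultures (-0.78 ± 0.16, adjusted p = 0.00656 for adherent cells and -0.84 ± 0.066, adjusted p = 6.35e-07 in spheres). SF3B3 was lower in adherent cells (-0.49 ± 0.072, adjusted p = 0.00107) and gave -0.072 ± 0.056, adjusted p = 0.284 in spheres.

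The other polymerases were counted in the same way, and the difference between these counts was not tested. Of 7 measured genes of the ribosomal RNA polymerase Pol I, 4 fell and 0 rose in adherent cells, and 2 were higher and 0 lower in spheres. At an unadjusted p of 0.05 edgeR gave 5 lower and 0 higher in adherent cells and 2 higher and 0 lower in spheres, and DESeq2 called 2 lower and 0 higher, and 2 higher and 0 lower. POLR1E was lower in adherent cells (-0.42 ± 0.059, adjusted p = 0.000912) and at 0.036 ± 0.075, adjusted p = 0.699 in spheres (difference 0.39 ± 0.10, adjusted p = 0.0102). POLR1B was lower in adherent cells (-0.27 ± 0.072, adjusted p = 0.0161) and higher in spheres (0.25 ± 0.069, adjusted p = 0.00696, difference 0.46 ± 0.10, adjusted p = 0.00438). Of 10 Pol III genes, 2 were higher and 3 lower in adherent cells and 3 were higher and 1 lower in spheres. POLR3G, the Pol III subunit of stem cells and proliferating cells, was at 94.0, 82.9 and 81.4 CPM in adherent shCtrl against 34.1, 33.6 and 35.2 CPM in adherent shSigma (-1.39 ± 0.086, adjusted p = 2.38e-05). In spheres it was at 26.3, 29.2 and 27.3 CPM and 24.8, 24.1 and 27.0 CPM (-0.13 ± 0.078, adjusted p = 0.161, difference 1.1987 ± 0.11, adjusted p = 3.12e-06), and the 3 adherent shCtrl libraries stood above the other 9. CRCP, another Pol III subunit, was higher in both cultures (0.54 ± 0.078, adjusted p = 0.000937 and 0.55 ± 0.066, adjusted p = 2.10e-05).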

How the data were processed

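RNA from 12 DU145 samples (3 libraries in each of 4 groups) was sequenced by the authors from directional libraries of 800 ng total RNA with 75 nt single-end reads. The authors deposited counts of reads per gene. The submitters' processing notes name STAR 2.6.1c, the GRCh38.p12 build and DESeq. The annotation, the strand setting and how multi-mapped reads were handled are not given in the sources used here. Totals ran from 16472722 to 26957777 counts. The labels call the 3 replicates of a group independent. Their counts differed beyond sampling noise in every pair of one group (chi-square per gene 2.73 to 43.9), and 0 columns were left unmapped.

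Symbols and positions came from GENCODE release 44, which matched 26153 of 28747 identifiers. Genes passed filterByExpr (minimum count 10). edgeR 4.0.16 (TMM scaling, quasi-likelihood test, R 4.3.3, limma 3.58.1) was fitted on all genes, with p-values adjusted over all genes (Benjamini-Hochberg, threshold 0.05). The knockdown was fitted in the 6 libraries of each culture, and the interaction and the culture comparisons in all 12. DESeq2 1.42.0 and the other alternatives are given in the closing section. The scripts were tested on simulated data. CPM uses TMM library sizes over all 12 libraries, and RPKM divides it by the union of annotated exons. GC was the share of G and C in the transcript, and its trend was removed as a smooth curve per library. Transcripts were aligned to alternate sequences with minimap2 2.31-r1302. Promoters were read in Python 3.11.15 and plots drawn with matplotlib 3.10.9.

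The genes and lists were chosen with earlier results of these data known. The rule for naming genes took those past an absolute log2 fold change of 1 and the 6 highest and 6 lowest called genes of each culture. It took the gene with the largest F statistic of each role list and the 6 largest of the interaction. It also took the 3 highest and 3 lowest between cultures in shCtrl, all POLR2 genes and genes that failed the filter. Last came the called gene with the largest F statistic of each partner list. The level of the targeted gene is not reported here. Other genes named in the text were chosen after their values were seen. Same-numbered libraries of the 2 hairpins deviated from their group means with correlations between -0.849 and 0.0594, so the numbers were not taken to pair libraries.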

Additional observations from a re-analysis of the deposited data

Results flagged for a closer look

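For 12 genes the effect of the shSigma hairpin differed between cultures by the interaction test, and the values below are the knockdown log2 fold change in tumor spheres minus that in adherent cells. It was above 0 for GTF2A1 (0.61), GTF2E1 (0.51), TAF3 (0.45), MED1 (0.40) and GTF2H3 (0.30). It was below 0 for MED9 (-0.62), GTF2A2 (-0.53), TAF7 (-0.46), MED10 (-0.44), MED28 (-0.40), MED29 (-0.39) and POLR2C (-0.33). Adjusted p-values ran from 0.000709 to 0.0401. The POLR2C call was lost with DESeq2, with DESeq2 size factors and without the filter on low counts. It was also lost with any library left out except adherent shCtrl 1. MED29 lost its call with DESeq2, without the filter and in most fits with a library left out. Subtraction of the neighbours lost 6 of the 12 calls, those of GTF2H3, MED9, MED10, MED29, TAF3 and TAF7, and 4 other genes gained one. By edgeR MED9 then stood at -0.33 (adjusted p = 0.105) and MED10 at -0.074 (adjusted p = 0.654). Over all genes 1986 were then above and 2042 below 0, against 1807 and 2217. GTF2A1 fell and MED10 rose in both cultures, so for these genes the size differed and not the direction.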

How the results depend on the processing

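Over 3936 recomputed values of named genes, 229 lost the call, 105 gained one and 14 changed sign with a call in the main or the alternative fit. The other 3588 kept their side of the threshold, and no change of sign among them involved a call. Leaving out a library in turn gave 8 to 20 genes lower in adherent cells (8 without shCtrl 2, shSigma 1 or shSigma 2, and 10 without shCtrl 1, against 16), 7 to 18 in the interaction (7 without adherent shSigma 1 or sphere shSigma 3, against 12) and 11 to 18 higher in control spheres (11 without sphere shCtrl 2, against 18). Counts over all genes fell in these fits too. In the order of the brackets, they were 2581, 2477, 2597 and 3037 lower in adherent cells (against 3813). The interaction gave 1499 above and 1735 below 0, and 1524 and 1708 (against 1807 and 2217). In control spheres 3409 were higher (against 4043). Requiring an absolute log2 fold change over 0.5 left 7 higher and 8 lower genes in adherent cells, 11 and 9 in spheres, 4 in the interaction, 7 and 9 in control cultures, and 0 lower in shSigma cultures. Over all genes it left 2149 higher and 2427 lower in adherent cells and 2264 and 2264 in spheres. It left 1155 above and 1659 below 0 in the interaction, 2842 and 2062 in control cultures, and 1730 lower in shSigma cultures. An adjusted p of 0.01 left 9 lower in adherent cells, 5 in the interaction and 3 higher in shSigma cultures. Over all genes that threshold left 2774 lower in adherent cells, 1119 above and 1389 below 0 in the interaction, and 1837 higher in shSigma cultures. With the replicate number as a block, which does not pair these libraries, 10 were lower in adherent cells and 4 were called in the interaction. Over all genes the block left 2747 lower in adherent cells, and 1082 above and 1413 below 0 in the interaction. The numbers of higher genes in adherent cells (9) and of both directions in spheres (23 and 22) stayed within 1.5 times. Subtracting the median of the 40 nearest genes left 10 higher in control spheres, beside 3581 over all genes. The sign turned there in adherent cells for POLR2K (0.020), GTF2B (0.26), TAF12 (0.14), GTF2I (-0.38) and TAF7 (-0.39), in spheres for TAF2 (0.084), GTF2I (-0.084), GTF2F1 (-0.11) and POLR2J (-0.14), and in control cultures for GTF2IRD1 (-0.077) and MED29 (-0.12). Added after seeing the data, removal of the GC trend gave 18 higher and 19 lower in adherent cells and 18 in the interaction, with all 28 adherent calls and all 12 interaction calls kept, and 9 higher in shSigma cultures. Over all genes it gave 4448 higher and 4397 lower in adherent cells. It gave 2888 above and 3067 below 0 in the interaction, and 3697 higher in shSigma cultures. Leaving out adherent shCtrl 1 and shSigma 3, also added, gave 17 higher and 17 lower in adherent cells, 17 in the interaction and 9 higher in shSigma cultures. Over all genes it gave 3909 and 4149, 2468 above and 2450 below 0, and 3364. Under the GC removal the sign turned for MED14 in adherent cells (0.13), for MED25 in spheres (-0.083), for TAF6 (-0.28), GTF2F1 (-0.21), POLR2H (-0.22), POLR2I (-0.052) and GTF2IRD1 (-0.012) in control cultures, and for GTF2IRD1 (-0.17) in shSigma cultures. The cause of these changes was not tested beyond the construction of each alternative. Depth is least for GTF2IRD2, GTF2IRD2B and TAF4. The lowest count of a tested gene in a library was 7, and the median of the lowest counts was 625.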
